A study of Mus musculus with 12 samples.

Results

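Collagens, laminins and the glycoproteins and proteoglycans that fibroblasts secrete form the extracellular matrix. The genes described here are the collagen chains, the laminin chains and 16 further matrix genes such as fibronectin (Fn1), decorin (Dcn) and periostin (Postn). They were picked by gene symbol from the array's annotation, by a rule that uses no measured value but that was written with earlier results of these data known. 68 genes had a probe set of 1 symbol, among 18193 such genes in the table, and 141 of the 45037 probe sets were theirs. Where a gene had several probe sets, as 47 did, the brightest stands for it, and 52 of the 68 were bright enough to be tested. Fbn1 and Loxl2, which belong to the same set, were not analysed here.

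In the spinal cord the basement membrane is a thin sheet of collagen IV, laminin and nidogen that underlies the endothelium, and astrocyte end-feet rest on a laminin layer of their own. Fibrillar collagens such as collagen I and III are made mainly by fibroblasts of the meninges and of larger vessels. The space between neural cells normally holds little fibrillar collagen, and matrix genes are known to be induced in glial and perivascular scars.

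The mice carried a human SOD1 transgene with the G93A mutation, a cause of familial amyotrophic lateral sclerosis, or were non-transgenic (NTg) littermates on the same C57Bl/6 background, and all were male. All cells of these mice carry the transgene, not astrocytes alone. Both genotypes were sampled at a symptomatic age of 90 days and a late-stage age of 120 days, with 3 mice in each of the 4 groups, a separate mouse on each of 12 Affymetrix Mouse Genome 430 2.0 arrays. Astrocytes had been cut from the lumbar ventral horn by laser capture, and the study itself describes the captured RNA as a mix of cell types with a large astrocyte share.

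Values are signals on a linear scale, each array scaled to the same trimmed mean. Genotype differences are log2 fold changes, SOD1 G93A relative to NTg, on the log2(signal + 7) scale after quantile normalization within each age, which understates the change of dim genes. Adjusted p-values are from limma with Benjamini-Hochberg adjustment over the 26132 probe sets tested, and a gene is called changed under 0.05. Where genotypes are compared, rose and fell mean higher and lower in SOD1 G93A than in NTg mice of that age, not a change with age. Median signals were between 24.9 and 55.2 over the arrays. Array 3 of the late-stage SOD1 G93A group stood apart, with the highest median and a mean correlation of 0.835 with the other 2 arrays of its group, against 0.880 to 0.952 for the remaining arrays. Results that rest on it are given with and without it.

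Astrocyte markers were detected, together with markers of other cells. All 14 astrocyte markers were bright enough to be tested, as were 13 of 14 neuron markers and all 9 oligodendrocyte markers with a probe set, so the labelled cell type was not the sole one in the RNA. Aldoc, an aldolase of astrocytes, lay between 2994.5 and 8310.4 over the 12 arrays. Signals of the 16 fibroblast markers ran from 1.0 to 647.3. Fewer cells of a type and less RNA per cell cannot be told apart in such samples.

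Promoters are shown for Fmod, the matrix gene with the largest late-stage difference, and for Col1a2 and Col3a1, which were high together on single arrays. The table of RefSeq promoters (GRCm38.p6) held 49 of the 68 genes. The 150 bases before the annotated start are printed on the plus strand, Fmod at chr1:134037104-134037253, Col1a2 at chr6:4505468-4505617 and Col3a1 at chr1:45311388-45311537. Capitals mark a CCAAT or TATAAA motif.
Fmod: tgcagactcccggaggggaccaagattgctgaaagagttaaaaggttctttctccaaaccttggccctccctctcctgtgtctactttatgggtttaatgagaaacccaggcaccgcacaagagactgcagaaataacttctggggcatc
Col1a2: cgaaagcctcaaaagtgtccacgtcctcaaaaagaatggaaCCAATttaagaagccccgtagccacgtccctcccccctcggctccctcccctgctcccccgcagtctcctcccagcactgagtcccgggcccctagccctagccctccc
Col3a1: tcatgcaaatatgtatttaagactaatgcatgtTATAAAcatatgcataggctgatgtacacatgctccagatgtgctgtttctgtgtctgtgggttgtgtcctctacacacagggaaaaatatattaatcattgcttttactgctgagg
The motifs searched, on both strands of the 250 bases before each start, were CCAAT, the TATA box (TATAAA), the AP-1 site (TGANTCA) and the STAT site (TTCNNNGAA), where N is any base. No motif overlapped another in the bases printed. Col1a2 held CCAAT from 109 to 105 bases before its start and Col3a1 held TATAAA from 117 to 112 bases before. Fmod held none of the 4. Over all 32851 promoter windows of this length, 33.8% held CCAAT, 12.4% TATAAA, 6.7% TGANTCA and 7.0% TTCNNNGAA.

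No matrix gene passed the threshold between genotypes at 90 days, and 8 were called higher in SOD1 G93A than in NTg mice at 120 days. At 90 days 0 of 52 were called higher and 0 lower, where 0.115% of all probe sets tested were called higher and 0.0230% lower. By the brightest probe sets, the smallest unadjusted p belonged to Col15a1, the sole matrix gene with one under 0.05. Second probe sets of Col27a1 (log2 fold change 0.81, unadjusted p = 0.0131 by limma) and Fbln1 (-0.68, unadjusted p = 0.0339) were also under it. Neither was called (adjusted p = 0.624 and 0.835). With a 2-fold change and unadjusted p under 0.05, again 0 genes were called at 90 days, against 0.999% of all probe sets higher and 0.769% lower. The median log2 fold change was -0.04, beside 0.00 for all probe sets.

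At 120 days the genes that rose were Fmod, Col27a1, Postn, Col20a1, Col9a3, Col7a1, Col5a3 and Col16a1. These were 15.4% of the 52, beside 3.60% of all probe sets, and 0 were called lower beside 3.86%. Among the called genes, Postn was bright enough to be tested only through the late-stage SOD1 G93A group. By the 2-fold rule 11 genes were higher (21.2%, all probe sets 5.18%) and 2 lower (3.85%, all probe sets 7.52%). The 3 added to the higher ones were Col6a1, Col9a1 and Pcolce, and the lower ones were Col24a1 and Col25a1. In 14 genes (26.9%) every normalized SOD1 G93A value was above every NTg value, against 14.0% of all probe sets, and in 3 (5.77%) every value was below, against 18.5%. At 90 days these counts were 1 above, Lamb2 (all probe sets 5.74%), and 2 below, Col24a1 and Col4a5 (all probe sets 5.56%). The median log2 fold change at 120 days was 0.42, beside -0.07 for all probe sets, and it was 0.13 without array 3 of the late-stage SOD1 G93A group.

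Scaling moved the split at 120 days. Centring each array on its median lowered the median of all probe sets from -0.07 to -0.33 and that of the matrix genes to 0.16. Under it 4 matrix genes were called higher (7.69%, all probe sets 2.55%) and 5 lower (9.62%, all probe sets 10.8%), the latter being Col19a1, Col24a1, Col25a1, Col4a1 and Col4a2. Over all 12 arrays normalized together, 9 were higher (17.3%, all probe sets 4.74%) and 2 lower (3.85%, all probe sets 5.76%). Fmod, Col20a1, Col27a1 and Postn were higher under each of these scalings, and under the values as deposited.

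**Figure D1:**
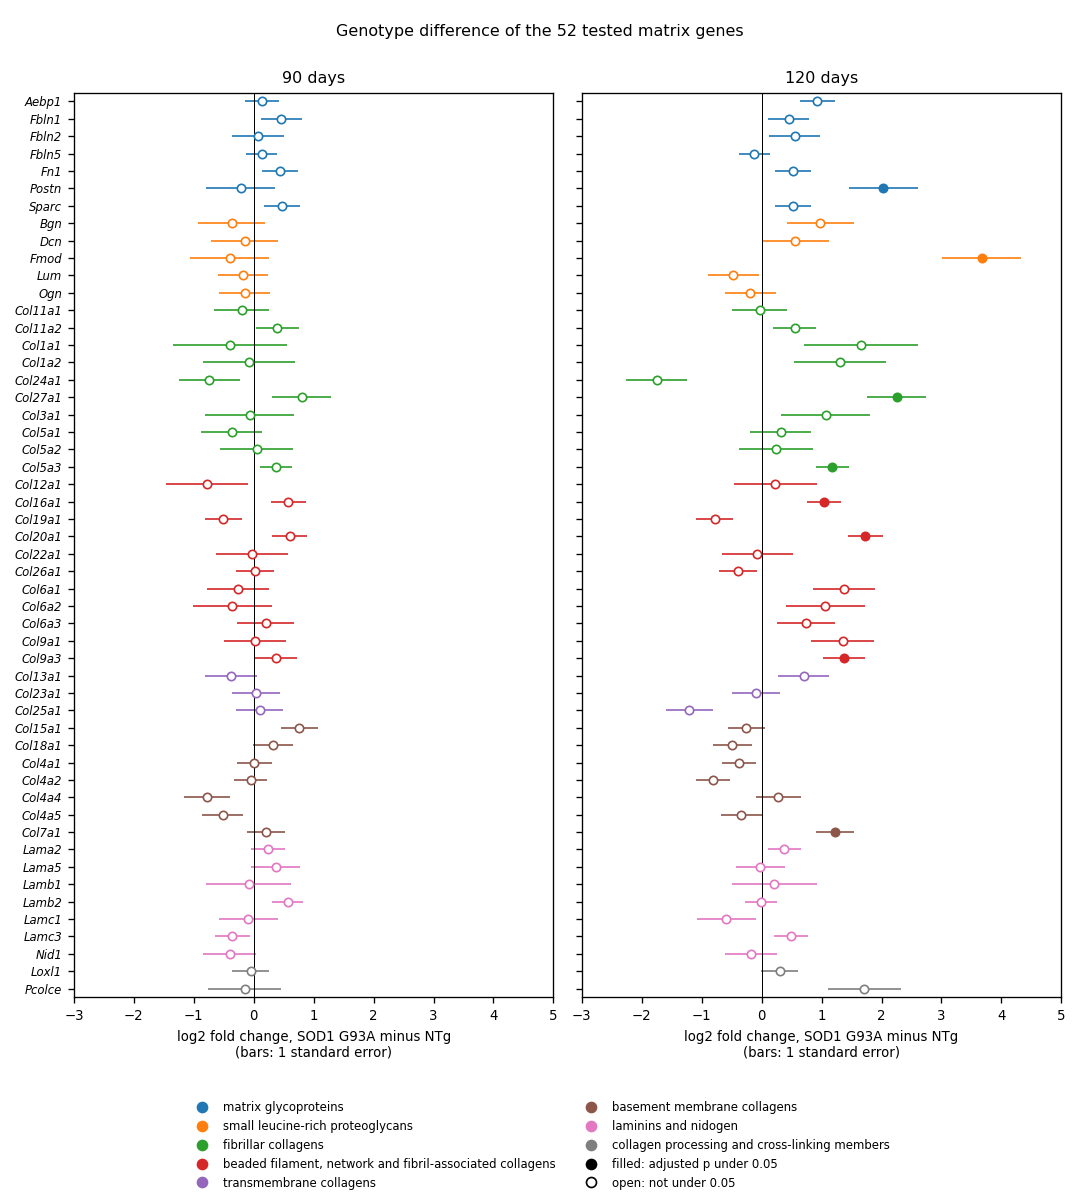
Log2 fold change (SOD1 G93A relative to NTg) for each of the 52 tested matrix genes at 90 days (left) and 120 days (right), with bars of 1 standard error, coloured by role and filled where the adjusted p was under 0.05. No gene is filled at 90 days, and 8 are filled at 120 days, all to the right of 0.

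Matrix glycoproteins are secreted proteins that bind collagen and cell receptors, and 1 of the 7 tested rose at 120 days. This was Postn, periostin, a protein of fibroblasts and wounds that binds collagen. Its deposited signals were 49.9, 97.2 and 183.9 in late-stage SOD1 G93A mice and 11.5, 26.5 and 10.8 in NTg mice. The groups did not overlap, and the highest value was on array 3. The log2 fold change was 2.03 (SE 0.58, adjusted p = 0.0488), and without array 3 it was 1.60 (adjusted p = 0.142), and the call was lost without each of 8 arrays in turn. It was lost too with no filter on dim probe sets. Outside the late-stage SOD1 G93A group, Postn passed the array median only on array 3 of the NTg group and array 2 of the SOD1 G93A group, both at 90 days. Its being tested thus depended on the group in which it was high. At 90 days Postn lay between 2.8 and 39.6 in SOD1 G93A mice and between 9.9 and 37.1 in NTg mice.

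Aebp1, a collagen-binding protein of the carboxypeptidase family, had signals of 90.4, 114.4 and 105.7 in late-stage SOD1 G93A mice and 48.6, 34.0 and 46.4 in NTg mice. These did not overlap and were even within each group, yet the log2 fold change of 0.93 (SE 0.29) missed the threshold (adjusted p = 0.0684). A second probe set of Aebp1 was called, with 114.9, 137.4 and 212.3 against 44.8, 19.7 and 22.9 and a log2 fold change of 2.01 (SE 0.48, adjusted p = 0.0268). The brighter one passed too under 7 of 25 alternatives. Sparc, a collagen-binding glycoprotein that astrocytes are known to secrete, had signals from 1351.2 to 3298.4 over the 12 arrays. Its log2 fold changes were 0.48 at 90 days and 0.52 at 120 days (SE 0.30 at each, adjusted p = 1.00 and 0.297), with the late-stage groups overlapping. Fn1, fibronectin, which links cells to collagen, had 310.9, 238.4 and 147.0 against 193.9, 120.3 and 150.1 at 120 days. The groups overlapped, and the log2 fold change of 0.52 (SE 0.30) was not called. The fibulins, which are elastic fibre proteins, had late-stage log2 fold changes of 0.45 (Fbln1), 0.55 (Fbln2) and -0.12 (Fbln5). A second probe set of Fbln1 went the other way, at -0.72 (SE 0.29, adjusted p = 0.139), and neither was called.

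Small leucine-rich proteoglycans bind collagen fibrils and set their width, and 1 of the 5 tested rose at 120 days. Fmod, fibromodulin, had signals of 1637.9, 2033.9 and 2918.5 in late-stage SOD1 G93A mice and 137.3, 160.0 and 171.4 in NTg mice. The groups were far apart, and array 3 was the highest of its group. The log2 fold change was 3.67 (SE 0.66, adjusted p = 0.00653), a 12.7-fold difference, and 3.47 (adjusted p = 0.0214) without array 3.

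At 90 days Fmod had 883.1, 754.7 and 465.3 in SOD1 G93A mice. The NTg mice of that age had 1189.1, 215.7 and 3255.2, a span wider than that of any other group, with the SOD1 G93A values inside it. The log2 fold change at 90 days was -0.40 (SE 0.66, adjusted p = 1.00). All NTg signals were lower at 120 than at 90 days and all SOD1 G93A signals higher, with log2 fold changes between ages of -2.42 (adjusted p = 0.0550) and 1.76 (adjusted p = 0.111), neither of which passed. Of its other probe sets 1 was called between ages in SOD1 G93A mice, at 3.04 (adjusted p = 0.0213).

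Fmod has 5 further probe sets, and each of them was called at 120 days, with log2 fold changes from 1.68 to 4.16. Of the 6 in all, 5 carry a suffix (_x_at) that the manufacturer gives to probe sets which may match other transcripts too. The one without it had 95.3, 181.3 and 139.6 in late-stage SOD1 G93A mice and 26.3, 40.8 and 30.6 in NTg mice, and gave the lowest of these fold changes. Gfap, the intermediate filament of astrocytes, is given beside it since it too was high in NTg mice at 90 days. Its NTg signals were 2508.2, 784.6 and 3302.8 at 90 days and 109.2, 231.4 and 102.3 at 120 days, and its late-stage SOD1 G93A signals were 3989.5, 5365.1 and 3253.3. In NTg mice of 90 days, array 2 was the lowest and array 3 the highest for both genes.

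Bgn, biglycan, had 80.8, 122.1 and 290.9 against 72.3, 60.8 and 68.8 at 120 days. The groups did not overlap, but the log2 fold change of 0.98 (SE 0.56) did not pass (adjusted p = 0.292) and was 0.44 without array 3. For Dcn, decorin, Lum, lumican, and Ogn, osteoglycin, the late-stage log2 fold changes were 0.56, -0.47 and -0.19 (adjusted p = 0.555, 0.505 and 0.818).

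Fibrillar collagens assemble into banded fibrils, and 2 of the 10 tested rose at 120 days. Col27a1, a minor fibrillar chain known from cartilage, had 664.0, 528.1 and 1225.4 in late-stage SOD1 G93A mice and 219.4, 108.9 and 169.1 in NTg mice. All 3 arrays of one group lay above the other. This was a log2 fold change of 2.25 (SE 0.49, adjusted p = 0.0174), a 4.76-fold difference. Without array 3 it was 1.90 and just missed the threshold (adjusted p = 0.0520). A second probe set of Col27a1 gave a log2 fold change of 0.54 and was not called. At 90 days the SOD1 G93A signals of the brighter probe set were 892.5, 443.6 and 460.9 against 204.1, 225.4 and 745.3, which overlapped. The second probe set did not overlap at either age. At 90 days it had 132.2, 109.1 and 135.7 against 71.2, 42.8 and 90.1 (log2 fold change 0.81, adjusted p = 0.624).

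Col5a3, a chain of collagen V, which helps to start collagen fibrils, had 214.5, 280.8 and 218.7 in late-stage SOD1 G93A mice and 130.0, 82.4 and 93.2 in NTg mice. Array 3 did not stand out, and the groups did not overlap. The log2 fold change was 1.18 (SE 0.27, adjusted p = 0.0205), and 1.25 (adjusted p = 0.0338) without array 3. The other chains of collagen V, Col5a1 and Col5a2, had log2 fold changes of 0.32 and 0.24 and were not called. Second probe sets of these chains went the other way, at -0.44 and -0.41 (adjusted p = 0.391 and 0.581). Col24a1, a fibrillar chain known from bone, went the other way, with 15.7, 43.6 and 2.2 against 33.6, 99.3 and 55.6. Its groups overlapped, and the log2 fold change of -1.75 (SE 0.51) fell just short (adjusted p = 0.0546). Col11a1, a chain of cartilage fibrils, had log2 fold changes of -0.20 at 90 days and -0.03 at 120 days.

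**Figure D2:**
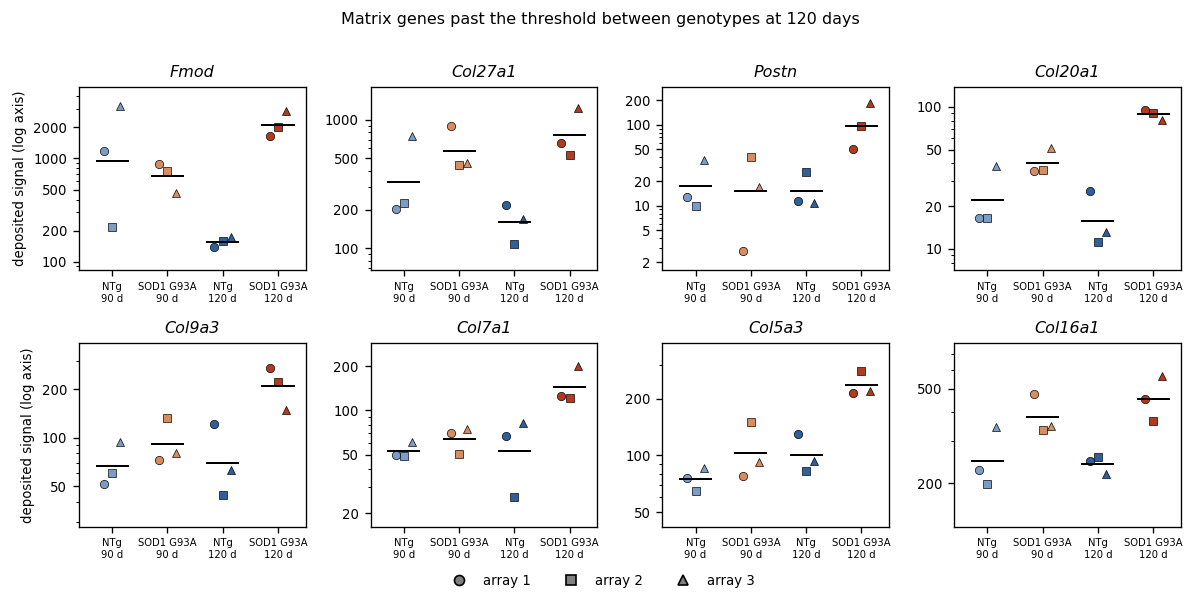
Deposited signal (log axis, differing between panels) of the 8 matrix genes called at 120 days in the 4 groups, with 1 symbol per array, shaped by array number, and a line at the mean of the log2(signal + 7) values. In every panel the 3 late-stage SOD1 G93A arrays lie above the 3 late-stage NTg arrays, and at 90 days the genotypes overlap.

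Of the beaded filament, network and fibril-associated collagens, 3 of the 11 tested rose at 120 days. Col20a1, a fibril-associated collagen, had 95.5, 90.0 and 80.3 in late-stage SOD1 G93A mice and 25.4, 11.2 and 13.1 in NTg mice. These groups were narrow and far apart. The difference was 1.73 on the log2 scale (SE 0.29, adjusted p = 0.00501), a 3.31-fold difference, and array 3 was the lowest of its group. At 90 days its signals were 35.3, 35.8 and 51.1 against 16.5, 16.4 and 38.3, and the log2 fold change was 0.60 (adjusted p = 0.924). Of its 3 other probe sets 1 was bright enough to be tested, with a log2 fold change of 1.10 that was not called. That one passed the array median only on the late-stage SOD1 G93A arrays.

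Col9a3, a chain of collagen IX, which coats cartilage fibrils, had 273.2, 221.9 and 149.9 against 121.5, 43.8 and 63.1 at 120 days. The lowest SOD1 G93A value, on array 3, was above the highest NTg value. Its log2 fold change was 1.37 (SE 0.35, adjusted p = 0.0338). A second probe set, with 107.4, 55.6 and 26.4 against 21.6, 37.3 and 9.2, overlapped between genotypes and was not called (log2 fold change 0.82, adjusted p = 0.322), and the call was lost on the mean of all probe sets. At 90 days that second probe set did not overlap, with 101.2, 166.4 and 143.7 against 78.0, 62.8 and 63.3 (log2 fold change 0.88, adjusted p = 0.993). Col9a1, the partner chain of Col9a3, had 43.5, 67.1 and 138.4 against 49.2, 2.8 and 32.1, which overlapped, and a log2 fold change of 1.35 (SE 0.52, adjusted p = 0.126). The NTg value of 2.8 lies below the 7 added before log2. A second probe set of Col9a1 had 39.8, 60.8 and 55.2 against 55.1, 25.1 and 29.4 (log2 fold change 0.10, adjusted p = 0.891). Col16a1, a fibril-associated collagen, had 450.2, 364.4 and 567.2 against 247.4, 258.8 and 219.0. The groups were apart, and the log2 fold change of 1.04 (SE 0.29) was at the edge of the threshold (adjusted p = 0.0490). Without array 3 it was 0.82 (adjusted p = 0.127). At 90 days Col16a1 had 473.4, 334.2 and 348.6 against 227.1, 198.0 and 343.5, with a log2 fold change of 0.58 (adjusted p = 0.933). Col19a1 was below NTg in every late-stage mouse, with 85.6, 125.9 and 108.4 against 164.7, 281.3 and 133.0, and a log2 fold change of -0.78 (adjusted p = 0.130).

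Transmembrane collagens are anchored in the cell membrane by one end, and none of the 3 tested was called. Col25a1, a neuronal collagen whose shed part binds amyloid, had 96.8, 46.8 and 90.8 in late-stage SOD1 G93A mice and 210.3, 171.8 and 136.0 in NTg mice. All SOD1 G93A values were lower, and the log2 fold change was -1.21 (SE 0.39, adjusted p = 0.0750). Of 13 neuron markers 5 were called lower at the same age, and their part in this difference was not tested.

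Basement membrane collagens had a late-stage median log2 fold change of -0.34, and 1 of the 7 tested rose. Col7a1, the chain of the fibrils that anchor skin to its basement membrane, had 125.5, 121.4 and 199.2 against 66.7, 25.6 and 81.5. The groups did not overlap, and the log2 fold change was 1.22 (SE 0.32, adjusted p = 0.0373). Without array 3 it was 1.01 (adjusted p = 0.0984). Collagen IV, the network that gives the basement membrane its strength, is built mostly of the chains Col4a1 and Col4a2, whose genes share one promoter region. Col4a1 had 196.5, 232.7 and 276.8 against 328.3, 257.1 and 459.8 at 120 days. Those groups overlapped, and the log2 fold change was -0.38 (SE 0.29, adjusted p = 0.423). Col4a2 had 108.9, 133.7 and 110.0 against 144.1, 235.3 and 272.9, with no overlap and a log2 fold change of -0.81 (SE 0.28, adjusted p = 0.0908). At 90 days the log2 fold changes of Col4a1 and Col4a2 were 0.01 and -0.05. Col15a1, a vascular basement membrane collagen, had 83.2, 60.9 and 38.8 against 32.5, 36.3 and 24.7 at 90 days, a log2 fold change of 0.76 (SE 0.31, unadjusted p = 0.0295, adjusted p = 0.809 by limma), and -0.26 at 120 days. Its deposited signals did not overlap at 90 days, while its normalized values did. Col4a5 had 73.0, 91.0 and 95.1 against 124.8, 132.1 and 111.4 at 90 days, all lower, and a log2 fold change of -0.52 (adjusted p = 1.00). Col4a4 had log2 fold changes of -0.78 at 90 days and 0.28 at 120 days.

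Laminins are trimers of an alpha, a beta and a gamma chain, and nidogen links them to collagen IV. None of the 7 tested was called at either age. By the brightest probe sets their late-stage log2 fold changes ran from -0.59 (Lamc1) to 0.49 (Lamc3), with a median of -0.01. A second probe set of Lamc3 was at -0.99 (adjusted p = 0.174). For Lama5 the brightest was at -0.02 and a second one at -0.85 (adjusted p = 0.101). In both second probe sets every normalized SOD1 G93A value was below every NTg value, and neither was called. Lamb2, a beta chain of vascular and synaptic laminins, had 109.0, 104.1 and 72.3 against 59.0, 66.6 and 53.4 at 90 days. All SOD1 G93A values were higher, and the log2 fold change was 0.57 (SE 0.26, adjusted p = 0.891). At 120 days it was -0.01. Lama2, the alpha chain of the astrocyte and muscle laminin, had 83.8, 90.4 and 115.0 against 80.3, 44.1 and 69.2 at 120 days and a log2 fold change of 0.38 (adjusted p = 0.421). For Nid1, nidogen, the log2 fold change was -0.18 (adjusted p = 0.828).

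Of the collagen processing genes, Pcolce, which speeds the cutting of procollagen ends, had 360.7, 255.3 and 955.7 against 171.4, 100.9 and 147.4 at 120 days. The groups did not overlap, but the spread within the SOD1 G93A group was wide. Its log2 fold change was 1.71 (SE 0.61, adjusted p = 0.0984), and 1.14 (adjusted p = 0.286) without array 3. A second probe set of Pcolce overlapped between genotypes, with 29.3, 52.3 and 99.2 against 40.1, 14.6 and 20.9 (log2 fold change 0.67, adjusted p = 0.420). Loxl1, a cross-linking oxidase, differed by 0.30 on the log2 scale (adjusted p = 0.574).

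The 16 genes whose brightest probe set was too dim to be tested are Col2a1, Col4a3, Col4a6, Col6a4, Col6a5, Col8a1, Col8a2, Col9a2, Col10a1, Col14a1, Col17a1, Lama1, Lama3, Lama4, Lamb3 and Lox. Their highest signal was 165.1, for Col14a1 on array 3 of the late-stage SOD1 G93A group, where the other 2 arrays had 12.4 and 48.7. Lox, the main collagen cross-linking oxidase, had another probe set that was tested, with 16.4, 47.4 and 96.8 against 7.6, 4.7 and 41.1 at 120 days. Those values overlapped, and the log2 fold change was 1.05 (SE 0.52, adjusted p = 0.225).

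The matrix genes also differed between mice of one group. Collagen I, III and VI are set out here, with Bgn and Pcolce. Col3a1, the collagen VI chains and Bgn were chosen after their values were seen. Col1a1 and Col1a2 encode the chains of collagen I. Col1a1 had 43.3, 46.4 and 1018.8 in late-stage SOD1 G93A mice and 40.8, 28.9 and 28.7 in NTg mice. Its high group value was that of array 3 alone, and the log2 fold change fell from 1.66 (SE 0.95, adjusted p = 0.290) to 0.14 without it. Col1a2 had 213.7, 207.6 and 1865.2 against 197.8, 132.8 and 213.5, and its log2 fold change fell from 1.31 (adjusted p = 0.303) to 0.26. Its normalized values did not overlap between the genotypes, while its deposited signals did. Col3a1, collagen III, had 47.4, 69.3 and 541.1 against 42.8, 43.0 and 79.0, and its log2 fold change fell from 1.07 (adjusted p = 0.383) to -0.06. Of collagen VI, the beaded filament collagen, Col6a3 had 61.1, 75.9 and 297.0 against 67.6, 43.6 and 75.6, with log2 fold changes of 0.74 and, without array 3, 0.00. Col6a2 had 81.5, 69.2 and 375.9 against 68.2, 39.6 and 61.2, with 1.06 and 0.25. A second probe set of Col6a2 did not overlap, with 72.6, 96.7 and 241.7 against 51.0, 20.9 and 44.3, and was not called (log2 fold change 1.38, adjusted p = 0.131). Col6a1 had 62.8, 79.6 and 216.6 against 40.9, 11.1 and 54.5, with log2 fold changes of 1.37 (adjusted p = 0.115) and, without array 3, 0.84.

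On array 3 of the late-stage SOD1 G93A group, 33 of the 52 matrix genes were at the highest normalized value of their group (63.5%, all probe sets 35.6%). 19 were over 1 log2 unit above the mean of the other 2 arrays (36.5%, all probe sets 8.17%). Matrix genes were also high on single arrays at 90 days. Array 3 of the NTg group held the highest value for 34 genes (65.4%, all probe sets 39.9%), 11 of them by over 1 log2 unit (21.2% of the 52, all probe sets 4.18%). Array 2 of the SOD1 G93A group held it for 26 of 52 (all probe sets 31.9%), 12 of them by over 1 log2 unit (23.1%, all probe sets 3.27%). For array 1 of that group the highest values numbered 23 (44.2%, all probe sets 37.2%). Of these, 2 were by over 1 log2 unit (3.85%), a share like that of all probe sets (3.87%). Col1a2 had 496.1, 300.2 and 1426.1 in NTg mice of that age, and 518.5, 1021.8 and 301.4 in the SOD1 G93A mice. For Col1a2, array 3 of the younger NTg mice and array 2 of the younger SOD1 G93A mice were thus the highest. Matrix genes were low on other arrays. Those over 1 log2 unit below the mean of the other 2 arrays numbered 13 on array 1 of the late-stage SOD1 G93A group (all probe sets 4.11%) and 12 on array 3 of the SOD1 G93A group at 90 days (all probe sets 2.61%). Array 2 of the NTg group at 90 days held the highest value of its group for 7 genes (13.5%, all probe sets 33.3%).

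**Figure D3:**
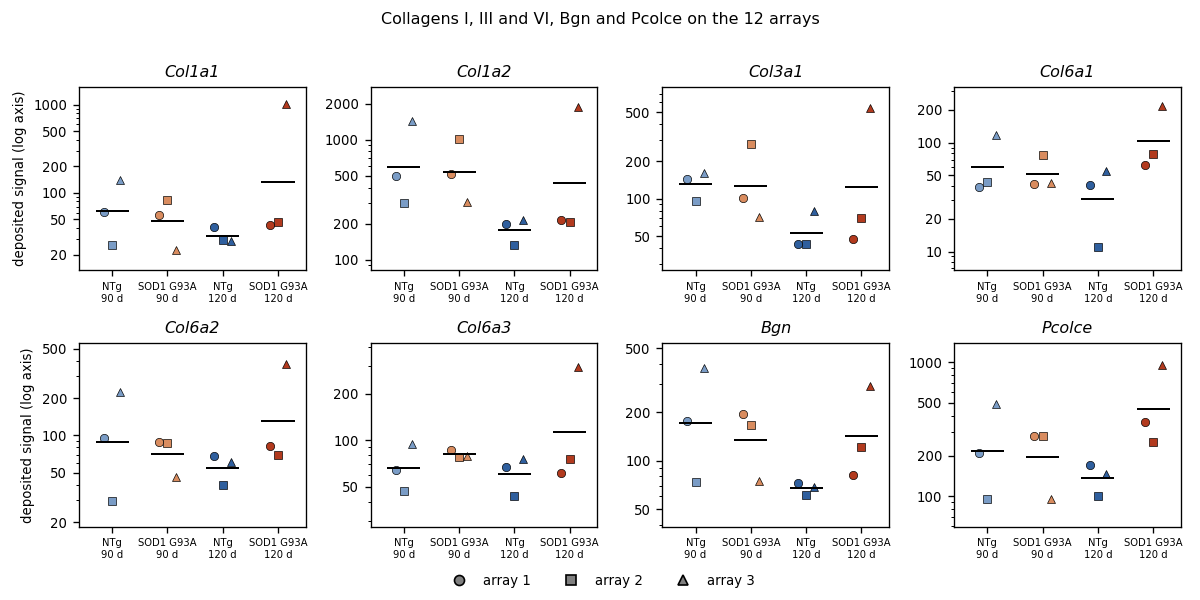
Deposited signal (log axis, differing between panels) of the collagen I, III and VI chains, Bgn and Pcolce on the 12 arrays, by group, shaped by array number, with a line at the mean of the log2(signal + 7) values. Array 3 of the late-stage SOD1 G93A group is the highest of its group in all 8 panels, Col1a1 reaching 1018.8 there against 43.3 and 46.4.

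**Figure D4:**
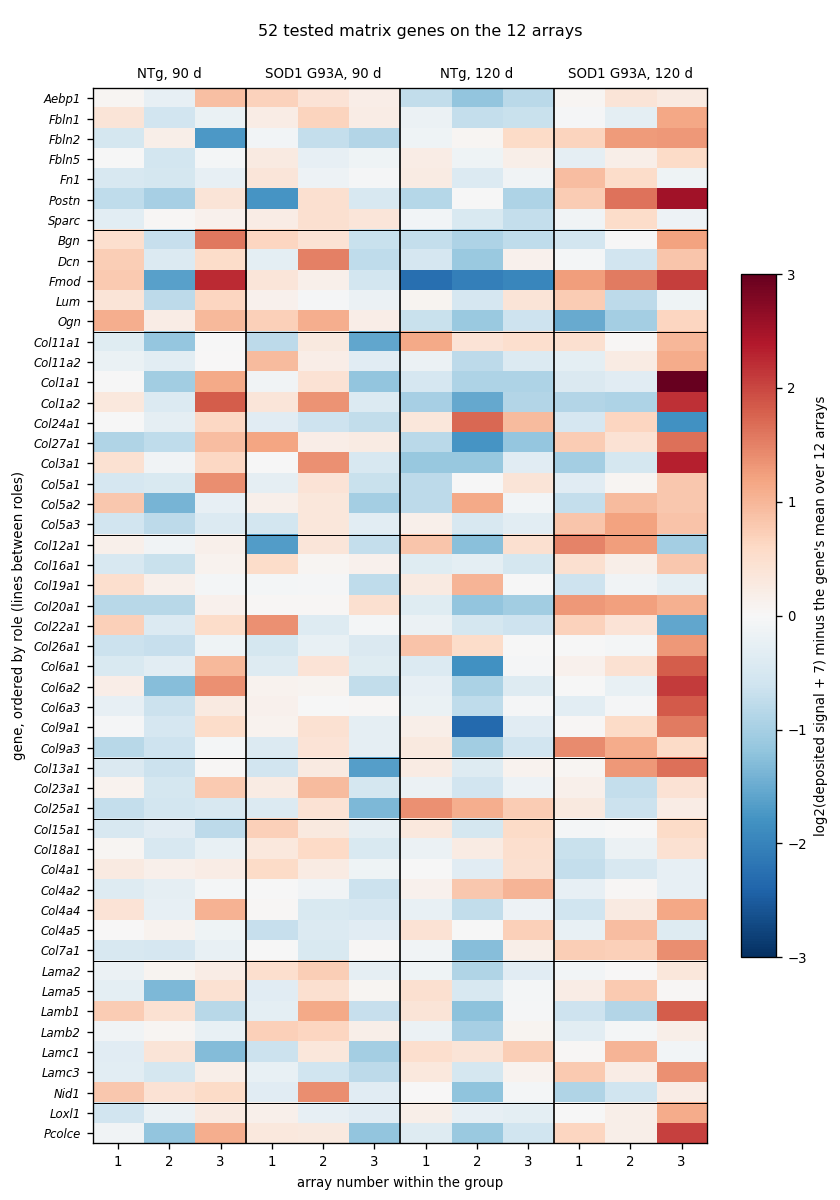
Log2(deposited signal + 7) of the 52 tested matrix genes, minus each gene's mean over the 12 arrays, with genes in rows by role and arrays in columns by group, and colours held at the ends of the scale where values go beyond it. Many rows are red on array 3 of the late-stage SOD1 G93A group and of the NTg group at 90 days, while Col20a1 and Fmod are red on all 3 late-stage SOD1 G93A arrays.

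Some fibroblast markers were higher on the same late-stage array, Igf2 above all. The summed signal of the 16 fibroblast markers was 802, 843 and 1472 in late-stage SOD1 G93A mice and 698, 473 and 653 in late-stage NTg mice. It was 1067, 555 and 1226 in the younger NTg mice and 812, 1119 and 670 in the younger SOD1 G93A mice. Igf2 carried much of these sums. Without it, a choice made after its values were seen, the other 15 summed to 670, 681 and 825 in late-stage SOD1 G93A mice and to 635, 396 and 562 in late-stage NTg mice. In the younger NTg mice they summed to 780, 480 and 767, so that array 3 was no longer the highest, and in the younger SOD1 G93A mice to 612, 864 and 557. On array 3 of the late-stage SOD1 G93A group, 11 of the 16 markers were at the highest deposited signal of their group. The deposited scale is not adjusted for the higher median of that array, and the share of all probe sets on it was not counted. Array 2 of the SOD1 G93A group at 90 days also held 11 of the 16, and array 3 of the NTg group at 90 days held 9. In the late-stage NTg group arrays 1 and 3 held 8 each. Of the 13 fibroblast markers tested, 0 were called at either age, with a late-stage median log2 fold change of 0.04. Igf2, a growth factor of the meninges, had 132.2, 162.0 and 647.3 in late-stage SOD1 G93A mice and 62.8, 76.6 and 91.5 in NTg mice. Dpt, a dermatopontin of fibroblasts, had 21.7, 3.6 and 101.5 against 28.2, 16.5 and 19.7, whereas Pdgfra, a receptor shared with oligodendrocyte precursors, had 82.9, 80.2 and 67.1. The part of fibroblast RNA in the matrix values was not tested.

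**Figure D5:**
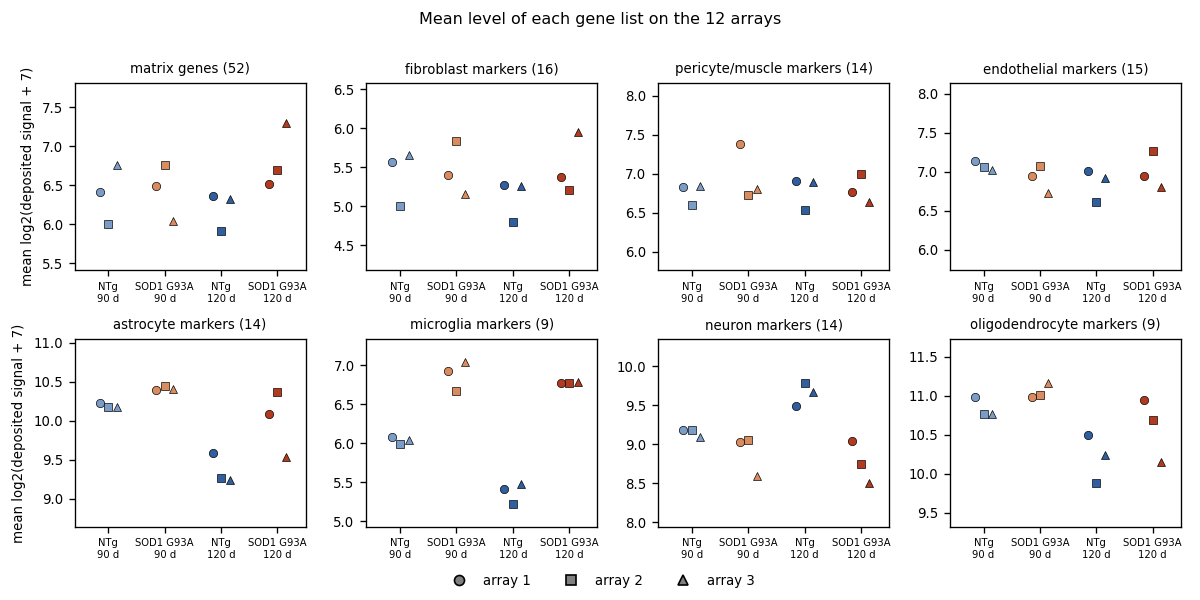
Mean log2(deposited signal + 7) of the 52 tested matrix genes and of 7 lists of cell type markers (number of genes in brackets) on the 12 arrays, by group and shaped by array number, each panel spanning the same range. On this deposited scale matrix genes and fibroblast markers are highest on array 3 of the late-stage SOD1 G93A group, at 7.30 and 5.95, an array that also has the highest overall median. After normalization the fibroblast mean is 5.62 there and 5.78 on array 2 of the SOD1 G93A group at 90 days. Microglia markers are higher in SOD1 G93A mice at both ages.

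The differences between genotypes at the 2 ages were themselves compared. No matrix gene had an adjusted p under 0.05 for the difference (0 of 52, all probe sets 0%), and 8 had an unadjusted p under 0.05 (15.4%, all probe sets 9.24%). Those were Fmod, Postn, Col20a1, Col7a1, Col6a1 and Pcolce, with a larger difference at 120 days, and Col15a1 and Col25a1, with a lower one. Fmod had the largest, 4.07 log2 units (SE 0.93, adjusted p = 0.262 by limma). An effect at 120 days that was larger than that at 90 days was therefore not shown for any matrix gene after adjustment.

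Within each genotype, mice of 120 days were set against mice of 90 days after normalizing all 12 arrays together, and here age and the handling of the arrays cannot be told apart. In NTg mice 1 matrix gene fell, Aebp1 (1.92%, all probe sets 2.48%), with a log2 fold change of -1.21 (SE 0.28, adjusted p = 0.0366), and 0 rose (all probe sets 1.14%). The call was lost without each NTg array other than array 2 at 90 days, and without array 2 of the SOD1 G93A group at 90 days. Its second probe set had -1.82 (adjusted p = 0.0510). In SOD1 G93A mice 1 rose, Col5a3 (1.92%, all probe sets 3.06%), at 1.21 (SE 0.27, adjusted p = 0.0198), and 1 fell, Ogn (1.92%, all probe sets 3.94%), at -1.67 (SE 0.45, adjusted p = 0.0433). Ogn had 97.3, 128.9 and 65.7 in the younger SOD1 G93A mice and 15.1, 24.1 and 92.0 in the older, of which the last was on array 3 and overlapped the younger group. Its call was lost in 14 of 18 alternatives, that of Col5a3 in 3. Its NTg signals went from 127.7, 67.4 and 118.1 to 33.0, 22.5 and 34.6, without overlap (log2 fold change -1.63, adjusted p = 0.0639). Probe sets of Sparc disagreed between ages. The brightest had log2 fold changes of -0.16 in NTg and -0.14 in SOD1 G93A mice. A second one went from 1405.9, 1581.0 and 1272.5 to 322.8, 327.8 and 328.4 in NTg mice, without overlap (adjusted p = 0.00944), and fell in SOD1 G93A mice too (log2 fold change -1.89, adjusted p = 0.00807). In SOD1 G93A mice a second probe set of Col20a1 (1.49, adjusted p = 0.0269) and of Dcn (1.53, adjusted p = 0.0421) also rose, and 1 of Lama5 fell (-1.30, adjusted p = 0.0242). That of Col20a1 passed the array median only on the late-stage SOD1 G93A arrays, and that of Dcn only on arrays of 120 days. Their being tested thus depended on the age at which they were high, so no weight is put on either rise. The median of the matrix genes was -0.30 in NTg mice and 0.14 in SOD1 G93A mice, where centring each array on its median turned it to -0.17.

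Few genes that make, bind or cut the matrix were called. At 120 days 3.60% of all probe sets tested were called higher and 3.86% lower, so most probe sets were not called either. Of 18 tested genes of collagen folding and modification, 1 rose at 120 days. This was Bmp1, the protease that trims procollagen and whose action Pcolce enhances, with 184.0, 267.4 and 225.3 against 115.5, 86.8 and 112.0 (log2 fold change 1.06, SE 0.27, adjusted p = 0.0345). Bmp1 was already apart at 90 days, with 279.3, 239.2 and 162.8 against 138.2, 113.2 and 88.1 (log2 fold change 0.93, adjusted p = 0.448). Of 16 tested matrix receptors 1 rose, the integrin chain Itgb5, with 1145.1, 1219.4 and 1610.8 against 292.1, 286.0 and 373.6 (log2 fold change 2.14, SE 0.36, adjusted p = 0.00446). Of 9 tested matrix-degrading enzymes, the gelatinase Mmp2 rose, with 180.6, 246.0 and 281.8 against 78.0, 31.3 and 21.1 (log2 fold change 2.30, SE 0.41, adjusted p = 0.00629). The other gelatinase, Mmp9, fell, with 45.9, 32.3 and 86.4 against 101.9, 182.4 and 203.5 (log2 fold change -1.61, SE 0.40, adjusted p = 0.0293). Of 11 further basement membrane and cell surface components 1 rose, the heparan sulphate proteoglycan Sdc4, at 1.93 (SE 0.37, adjusted p = 0.00936). At 90 days 0 genes of these 4 lists were called (all probe sets 0.115% higher and 0.0230% lower), the nearest being Mmp9 at -2.18 (adjusted p = 0.0641).

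Markers of other cells differed between genotypes at 120 days, the age at which matrix genes were called higher in SOD1 G93A than in NTg mice. Of all probe sets tested, 3.60% were called higher and 3.86% lower at that age. Of 14 astrocyte markers 3 rose at 120 days, Gfap at 4.79 (adjusted p = 0.000123), Aldh1l1 at 1.22 (adjusted p = 0.00820) and Sox9 at 1.53 (adjusted p = 0.0241). Of 7 tested microglia markers 4 rose, Fcrls, Csf1r, Aif1 and Cx3cr1, and the summed signal of the 9 with a probe set was 5020 to 5355 in late-stage SOD1 G93A mice and 1095 to 1290 in NTg mice. Of 13 neuron markers 5 fell, the neurofilament chains Nefl, Nefm and Nefh, the synaptic Snap25 and the nuclear Rbfox3, and the summed signal of 14 was 10740 to 18672 against 25164 to 33360. Of 9 oligodendrocyte markers Opalin rose. Pericyte markers (13 tested), endothelial markers (12), Schwann cell markers (3) and ependymal markers (3) held 0 called genes at either age, and at 90 days the sole marker called was Fcrls, at 2.20 (adjusted p = 0.00206). The mean log2(signal + 7) of the endothelial markers was 6.95, 7.26 and 6.81 in late-stage SOD1 G93A mice and 7.01, 6.61 and 6.92 in NTg mice, which overlapped. No marker list had a defining gene at a signal of 0. The part of these cells in the matrix differences was not tested.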

How the data were processed

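Astrocytes of the lumbar ventral horn were laser-captured, and their RNA was amplified by 2 rounds of linear amplification and hybridised, 1 mouse per array. The labels describe toluidine blue staining and MAS5, with the version not given in the sources used here, while the study's methods describe ALDH1L1 staining and PLIER. The deposited values are linear signal intensities, which the authors had made with MAS5 and which had a trimmed mean of 100 on each array after cutting 2% at each end. Present calls were not used. With 3 arrays per group, their number limits the precision. Each mouse is a separate replicate, so p-values set a group difference against the spread between arrays of different mice. That spread also holds differences in capture, amplification and hybridisation, and it was estimated over all 4 groups together.

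The signals were taken as log2 after adding 7, the 20th percentile of all values, and quantile-normalized within each age. The table held 45101 probe sets, 64 of them controls that were not analysed. A probe set was tested where its signal passed the array median on 3 or more of the arrays, which left 26132. Symbols came from the platform annotation, in which 34958 probe sets had 1 symbol, 932 several and 9211 none. Probe sets with several symbols were named for no gene. limma 3.58.1 in R 4.3.3 was used to fit 4 group means (8 residual degrees of freedom). Benjamini-Hochberg adjusted p-values under 0.05 were called. The rule of at least a 2-fold change with unadjusted p under 0.05 was counted beside it. The steps were tested on simulated data. Figures were drawn with matplotlib in Python.

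The matrix genes and the lists were chosen with earlier results of these data known, so they give no independent support. Genes named were those called, the 12 of smallest unadjusted p at each age, the 8 brightest, the 4 of widest spread and partner chains. Genes outside that rule were picked with their values in view. The alternatives comprised other scalings, offsets and filters, separate fits of each age, a replicate block, weighting of arrays, a prior that was trended and robust, the mean of all probe sets of a gene and leaving out each array. Leaving out 2 arrays together was added after the data were seen.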

Additional observations from a re-analysis of the deposited data

How the results depend on the processing

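The 8 matrix genes called at 120 days became 4 with no filter on dim probe sets, 3 with each age fitted alone and 13 by the 2-fold rule. Leaving out each array in turn gave 2 to 9, with 2 without array 2 or array 3 of the late-stage NTg group, 4 without array 3 of the late-stage SOD1 G93A group, and 5 without array 1 of either NTg group. Calls over all probe sets fell as well, from 1948 to 1244 with no filter, 759 with each age fitted alone, 475 and 610 without array 2 and array 3 of the late-stage NTg group, and 1123 without array 3 of the late-stage SOD1 G93A group. Fmod kept its call under all 25 alternatives and Col20a1 under the 24 in which it was tested, with adjusted p-values of at most 0.0345 and 0.0348. Col27a1 lost it in 3, each leaving out 1 late-stage array, Col5a3 in 5, Col9a3 in 8, Col7a1 in 10, Postn in 13 and Col16a1 in 16. At 90 days 0 genes were called under every alternative run. For the difference between ages the count was 0 to 1 with single arrays left out, Fmod being called without array 2 of the NTg group at 90 days. In that fit 11 of all probe sets were called.

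In NTg mice the 1 gene called between ages became 3 with the values as deposited, 4 after centring on the median, 4 with the offset at the 50th percentile, 4 with the filter at the 75th percentile, 0 with no filter, and 0 to 4 with single arrays left out. Calls over all probe sets moved as well, from 946 to 1304, 1336, 1533, 1452 and 389 in that order. The filter at the 75th percentile left 13576 probe sets to test. With single arrays left out all calls numbered 159 to 2048. In SOD1 G93A mice the 2 became 5 with the values as deposited, 4 after centring, 1 with an offset of 1, 5 with the offset at the 50th percentile, 1 with no filter, and 0 to 3 with single arrays left out. Calls over all probe sets went from 1830 to 2493, 5048, 1384, 2362 and 1238 in that order, and to 565 to 2167 with single arrays left out. Same-numbered mice deviated together by correlations of -0.28 to 0.28, so the numbers were not taken as pairs. With the replicate block 6 matrix genes were called at 120 days. Of these, 5 were among the 8 (9.62%, all probe sets 2.23% higher) and Col24a1 was lower (1.92%, all probe sets 1.84%), and 0 were called at 90 days. Without array 3 of both the NTg group at 90 days and the late-stage SOD1 G93A group, 6 were called higher at 120 days (12.5%, all probe sets 3.13%). Signals near the offset carry little precision, and no called gene changed its sign.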
